A study of Mus musculus with 22 samples.

Results

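Coronal fractions 7, 8 and 9 are neighbouring slabs of 1 postnatal mouse brain, and their expression densities were set against those of the other 7 slabs of the same brain, fractions 1 to 6 and 10. The 3 fractions were chosen by their numbers in the sample titles and make up 3 of the 10 coronal arrays and of the 22 arrays in all. They came from an untreated male C57BL/6J mouse, an inbred laboratory strain, whose age the titles give as 7 days after birth and the age field as 3 days. The groups share the animal, the strain, the sex and the age, and they differ in the position of the slab, in part in the slide of the array and, for fraction 10, in the number of slabs pooled. Each fraction pooled 100 slices of 5 µm according to the labels, whereas the study's methods give a greater thickness, and the text therefore names slabs by number and gives no distances. Whether fraction 1 was the front or the back is not in the labels, and the last coronal fraction pooled slabs 10 and 11. Total RNA of each fraction was labelled with Cy3 and hybridised to 1 Agilent array. Fractions were not replicated, and the spread behind every test is that among slabs of 1 brain, of which neighbours are not independent.

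The working name of these fractions is striatum and frontal cortex. The striatum is the input nucleus of the basal ganglia, and nearly all of its neurons are GABA-releasing spiny projection neurons that receive dopamine from the midbrain and glutamate from the cortex. Those of the direct pathway carry the dopamine receptor Drd1 and make dynorphin and substance P, and those of the indirect pathway carry the dopamine receptor Drd2 and the adenosine receptor Adora2a and make enkephalin. Drd1 and Adora2a stimulate adenylyl cyclase through the olfactory type of stimulatory G protein, Drd2 inhibits it through inhibitory G proteins, and the resulting changes in cyclic AMP act on the phosphatase inhibitor DARPP-32, the product of Ppp1r1b. Retinoic acid, a ligand of the nuclear receptor Rarb, takes part in the maturation of these neurons.

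The promoters of 3 striatal genes are shown because all 3 genes lay higher in fractions 7 to 9 than in any other fraction and because 2 of the promoters hold a motif named for cyclic AMP or retinoic acid signalling, while that of Drd1, the dopamine receptor, holds a common promoter element. Each covers 250 bases before and 50 bases after a RefSeq start site (build GRCm38.p6), reads 5′ to 3′ on the strand of the gene, and has the motif in capitals. The Drd1 promoter lies at chr13:54055609-54055908 on the minus strand, and its capitals mark a GC box, GGGCGG, which another Drd1 promoter of the table also holds. The Gpr6 promoter lies at chr10:41072241-41072540 on the minus strand, and its capitals mark a cyclic AMP response element, TGACGTCA. The Rarb promoter lies at chr14:16575427-16575726 on the minus strand, and its capitals mark a direct repeat of retinoic acid receptor sites, GGTTCA and AGTTCA 5 bases apart.
Drd1: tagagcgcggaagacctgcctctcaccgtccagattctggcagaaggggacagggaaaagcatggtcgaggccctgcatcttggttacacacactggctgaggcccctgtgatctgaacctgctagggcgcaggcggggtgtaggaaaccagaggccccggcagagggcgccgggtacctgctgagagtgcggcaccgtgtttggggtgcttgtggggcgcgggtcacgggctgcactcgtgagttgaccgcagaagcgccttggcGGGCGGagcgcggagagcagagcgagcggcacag
Gpr6: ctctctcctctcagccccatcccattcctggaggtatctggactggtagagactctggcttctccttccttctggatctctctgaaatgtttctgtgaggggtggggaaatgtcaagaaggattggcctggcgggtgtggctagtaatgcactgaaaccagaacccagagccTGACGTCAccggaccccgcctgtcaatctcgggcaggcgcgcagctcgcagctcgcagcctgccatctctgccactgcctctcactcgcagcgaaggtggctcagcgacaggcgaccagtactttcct
Rarb: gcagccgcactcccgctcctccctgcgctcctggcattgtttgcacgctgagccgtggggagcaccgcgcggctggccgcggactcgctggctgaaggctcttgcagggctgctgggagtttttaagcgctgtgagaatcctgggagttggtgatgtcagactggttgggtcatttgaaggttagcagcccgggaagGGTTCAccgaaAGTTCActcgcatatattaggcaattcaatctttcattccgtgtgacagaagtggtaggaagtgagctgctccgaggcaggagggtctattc
Both strands were searched. The GC box was found in 35.7% of the 32851 promoters of this length, the cyclic AMP response element in 1.79% and the direct repeat in 0.00609%, that is in 2 promoters. The direct repeat was searched in this exact spelling, which differs from the receptor site AGGTCA. Its low share follows from that spelling, and its match in Rarb is a description only. Of the 57 genes in the striatal lists used below, 42 had a promoter in the table, with 69 promoters in all. The counts that follow are of genes, whereas the percentages are of single promoters, so the 2 are not directly comparable. The cyclic AMP response element was present in the promoters of 2 of them, Gpr6 at 78 bases before the start and Sst at 48 bases before it, and the direct repeat was present in that of Rarb, 53 bases before the start. The GC box was present in the promoters of 22 of them and the retinoic acid receptor site AGGTCA in 5, where 16.3% of all promoters hold it. No promoter of Adora2a or Ppp1r1b was in the table. A match describes letters and shows no binding.

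Expression density is given below as a level, the log2 of the processed spot intensity less the array's own 75th percentile. A difference is a difference of such levels, so 1 unit is a factor of 2. A probe was called detected where its spot was well above background. Detected probes numbered 31425 to 32880 of 55600 in fractions 7 to 9 and 29596 to 40139 over the 10 coronal arrays. Fractions 1 and 2 stood apart, with the highest numbers (37483 and 40139) and a spike-in slope of 0.815 to 0.867 against 0.949 to 1.07 in fractions 3 to 10. The median level of all probes was -2.96 and -2.59 in fractions 1 and 2, -3.12 in fraction 8, -3.45 in fraction 9 and between -3.94 and -3.62 in the other 6. At least 2 log2 units separated each of fractions 1, 2 and 8 from each of fractions 3 to 6 and 10 for 201 genes (1.33%), counting only genes higher in 1, 2 and 8. Such genes made up 18 of the 25 with the largest difference above fractions 4 to 6 and none of the 230 that lay above all other 7 fractions. Fractions 7 and 8 shared slide 1 with fractions 1 and 3 to 6, and fraction 9 shared slide 3 with fraction 10.

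The 3 genes that define striatal neurons among the markers of these fractions all had their highest level in fraction 8. Ppp1r1b, which encodes DARPP-32, stood at 5.20, 5.99 and 3.99 in fractions 7, 8 and 9. In the other 7 fractions its level ran from 0.58 in fraction 1 to 2.90 in fraction 6, with a median of 1.60. The groups did not overlap, and the means differed by 3.41 ± 0.58 (difference ± SE of the 2-group limma fit, as for all differences from the other 7 fractions, 3 against 7 arrays). Drd1, the receptor of the direct pathway, stood at 0.15, 0.48 and -0.90 in fractions 7, 8 and 9. Its level in the other 7 fractions ran from -4.69 to -1.0, with a median of -2.81, and the means differed by 2.83 ± 0.73. The lowest striatal value, in fraction 9, lay only slightly above the highest value elsewhere, in fraction 6. Adora2a, the adenosine receptor of the indirect pathway, stood at 1.98, 2.58 and 0.51 in fractions 7, 8 and 9. Its level elsewhere ran from -2.49 to 0.52 with a median of -1.18, so that fraction 9 overlapped fraction 10, and the means differed by 2.68 ± 0.65. All 3 markers were lower in fraction 9 than in fractions 7 and 8. In such bulk samples, a larger share of cells of a type and more RNA per cell of that type cannot be told apart.

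Across the whole array, 20625 RefSeq probes for 15075 genes were well above background in at least 2 of fractions 7 to 9 and were tested. Against the other 7 fractions, none passed an adjusted p of 0.05 in limma with 2 groups (percent called 0), with a lowest adjusted p of 0.557. At an unadjusted p under 0.05, 666 probes were higher and 680 lower, a split that was 124 and 274 with arrays centred on the median, 128 and 642 with no scaling and 359 and 321 without fraction 8. Within slide 1 alone none was called either. The model that gave each block of slabs (1 to 3, 4 to 6, 7 to 9 and 10) its own mean called 140 probes higher (0.679%) and 49 lower (0.238%), and its adjusted p-values are given below as those of the 4-block model. It leaves the spread between blocks out of the error and still compares with the mean of the other 7 fractions. A gene it calls higher can therefore lie below fractions 4 to 6. Over all genes tested the median difference was 0.03, and 450 genes were more than 2-fold higher and 240 more than 2-fold lower. All 3 values of fractions 7 to 9 lay above all 7 others for 230 genes (1.53%) and below them for 213 (1.41%). These numbers were 490 (3.25%) and 689 (4.57%) without fraction 7, 463 and 464 without fraction 8, 473 and 318 without fraction 9, and 367 and 466 without fractions 1 and 2.

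The striatal lists held 57 genes in 4 groups, of which 53 passed the detection filter and 47 had a difference above 0. Fractions 7 to 9 lay above all of the other 7 for 14 of the 53 (26.4%, against 1.53% of all genes) and below them for none. The number was 14 without fractions 1 and 2 (against 2.43% of all genes), 15 without fraction 8 (against 3.07%), 15 without fraction 7 (against 3.25%) and 30 without fraction 9 (56.6%, against 3.14%). None was called in the 2-group test, in which 23 were higher at an unadjusted p under 0.05 (666 of 20625 over all probes). The 4-block model called 12 of the 53 higher and none lower, against 0.763% and 0.232% of all genes. The highest of the 10 levels was in fraction 8 for 29 of the 53 (54.7%, against 5.28% of all genes), in fraction 7 for 6 and in fraction 9 for 1. Of the 14 that did not overlap, 12 were highest in fraction 8, and in 12 fraction 9 had the lowest value of the 3.

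Receptors of the striatal list were higher in fractions 7 to 9 for all 13 members tested, with a median difference of 0.98 and a range from 0.10 to 2.83. Gpr52 and Htr1b did not pass the detection filter. Groups did not overlap for 4 of the 13, among them Drd1, Gpr6 and Gpr149, where 1.53% of all genes lay above. The 4-block model called 2 (0.763% of all genes were called higher), among them Drd1 (adjusted p = 0.0329). Gpr6, a receptor with constitutive activity toward cyclic AMP found in indirect-pathway neurons, stood at -0.52, 0.41 and -0.73 in fractions 7, 8 and 9. The other fractions ranged from -2.64 to -0.78 with a median of -1.18, a difference of 1.14 ± 0.40, and fraction 2 was the nearest. This is the gene whose promoter above holds the cyclic AMP response element. Gpr149, another orphan receptor, stood at -3.17, -2.62 and -3.24 against -5.24 to -3.34, with a difference of 1.26 ± 0.44, and was detected in 7 of the 10 fractions.

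The other receptors overlapped between the groups. Drd2 stood at -2.51, -2.03 and -3.37 in fractions 7, 8 and 9 against -3.98 to -2.65 elsewhere, a difference of 0.70 ± 0.32. Only fractions 7 and 8 exceeded the highest of the other values, and fraction 9 lay near their median of -3.39. Oprk1, the kappa opioid receptor bound by dynorphin, differed by 0.98 ± 0.38, with fractions 7 and 8 at -1.21 and -1.49 above every other fraction and fraction 9 at -2.21 inside their range. Drd3, the dopamine receptor known from the ventral striatum, was detected in 4 of the 10 fractions and differed by 0.74 ± 0.52. Oprm1, the mu opioid receptor, gave a different picture, at 4.71, 7.04 and 5.69 in fractions 7, 8 and 9 and at 7.53 and 8.36 in fractions 1 and 2, against 4.55 to 4.79 in the remaining 5. It belonged to the 201 genes high in fractions 1, 2 and 8, the other Oprm1 probe did not follow it (r = -0.252 over the 10 fractions, a description), and the part of those arrays in the result was not tested.

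**Figure D1:**
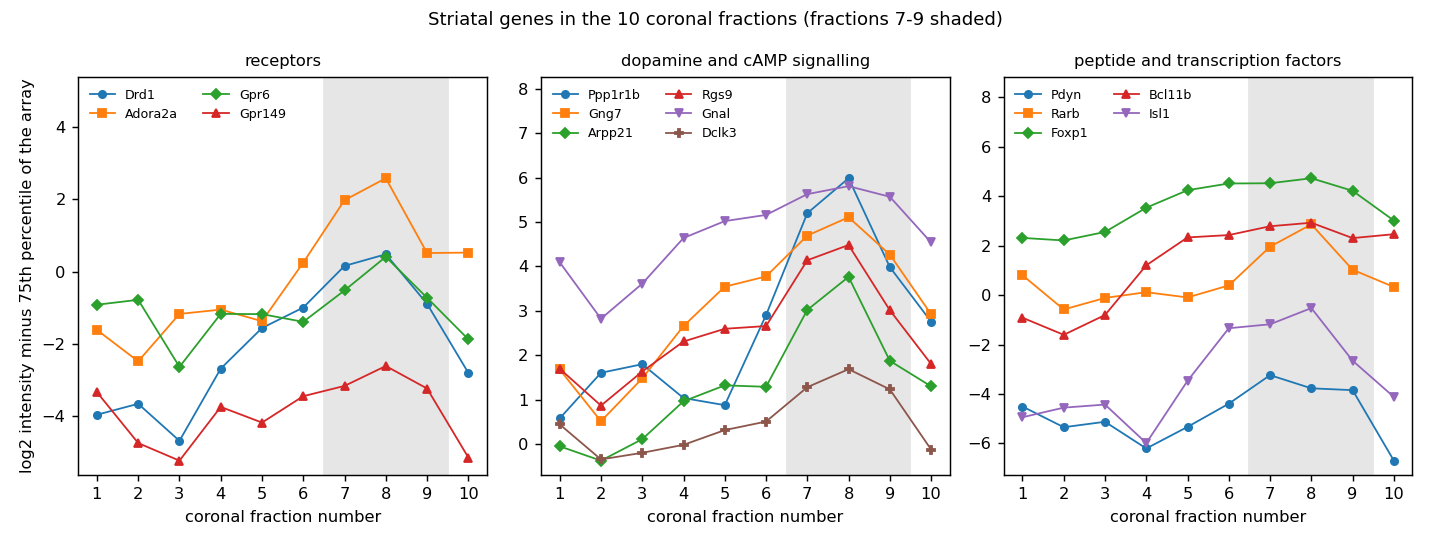
Levels (log2 intensity less the 75th percentile) of 15 striatal genes in the 10 coronal fractions, 1 point a fraction and 1 array a point, with fractions 7 to 9 shaded. Ppp1r1b stood at 2.90 in fraction 6 and at 5.99 in fraction 8, and 12 of the 14 striatal genes whose groups did not overlap had their highest level in fraction 8, while Isl1, Foxp1, Bcl11b and Adora2a are genes whose groups overlapped.

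Signalling genes downstream of the dopamine and adenosine receptors held the most members that did not overlap, 8 of the 21 tested (1.53% of all genes lay above). The 4-block model called these 8 and no other, where it called 0.763% of all genes higher. The median difference was 1.15, and 19 of the 21 were above 0. Gng7, the G protein gamma subunit that assembles with the olfactory type of stimulatory alpha subunit in striatal neurons, stood at 4.69, 5.11 and 4.27 in fractions 7, 8 and 9, and between 0.51 and 3.77 elsewhere. The means differed by 2.32 ± 0.64 (4-block adjusted p = 0.0312). Gnal, that alpha subunit, stood at 5.63, 5.81 and 5.57 against 2.82 to 5.16, a difference of 1.40 ± 0.45. The 3 striatal fractions were thus close together for both subunits, and fraction 6 was the nearest outside them. Arpp21, a phosphoprotein regulated by cyclic AMP, stood at 3.02, 3.77 and 1.87 against -0.38 to 1.32, a difference of 2.24 ± 0.49. Rgs9, which ends G protein signalling of dopamine receptors, stood at 4.14, 4.48 and 3.01 against 0.87 to 2.66, a difference of 1.94 ± 0.42.

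Dclk3, a kinase of the doublecortin-like family, stood at 1.28, 1.69 and 1.23 against -0.35 to 0.51, and its difference of 1.32 ± 0.22 had a small error for its size. Both subunits of soluble guanylyl cyclase, the enzyme that makes cyclic GMP in response to nitric oxide, were among the 8. Gucy1a1 stood at 3.76, 3.91 and 3.89 against 1.85 to 3.33, a difference of 1.21 ± 0.36. Gucy1b1 stood at 4.01, 4.34 and 4.53 against 2.38 to 3.73, a difference of 1.15 ± 0.32, and unlike most of the list it was highest in fraction 9. Phosphodiesterase 10A (Pde10a), which degrades both cyclic nucleotides in these neurons, differed by 1.70 ± 0.51. Its fractions 7 and 8, at 3.33 and 3.43, exceeded the highest other value of 2.32, and fraction 9, at 1.87, did not. The same order was seen in Scn4b, a sodium channel beta subunit, at -0.03, 0.55 and -1.91 against a highest other value of -0.51, and in Rasd2, a striatal small GTPase also called Rhes, at 3.20, 3.20 and 2.15 against 2.71. Adcy5, the main striatal adenylyl cyclase, differed by 0.67 ± 0.32 and Ptpn5, a striatum-enriched phosphatase, by 0.70 ± 0.38, both with overlap. Itpr1 (-0.03 ± 0.23) and Rasgrp2 (-0.26 ± 0.30) were the members not above 0.

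Among the peptides, prodynorphin was the 1 of 6 whose groups did not overlap, where 1.53% of all genes lay above. Pdyn, the dynorphin precursor, stood at -3.24, -3.77 and -3.84 in fractions 7, 8 and 9 and between -6.70 and -4.39 elsewhere, a difference of 1.75 ± 0.46, and was detected in only 5 of the 10 fractions. Penk, the enkephalin precursor, stood at 5.47 and 6.13 in fractions 7 and 8, above the highest other value of 5.22 in fraction 1, and at 3.76 in fraction 9. Tac1, the precursor of substance P, stood at 3.94, 4.86 and 3.49 and was as high in fraction 1, at 4.88. Npy, made by striatal and cortical interneurons, was even over the 3 fractions, at 3.99, 4.19 and 4.00, and fraction 10 exceeded them at 4.31. The differences of these 3 were 1.06 ± 0.52, 0.60 ± 0.50 and 1.37 ± 0.76, and that of Pnoc, the nociceptin precursor, was -0.33 ± 0.39.

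The transcription factors had a median difference of 0.80 over 13 members tested, with 10 above 0 and 1 that did not overlap (1.53% of all genes lay above). Rarb, the retinoic acid receptor whose promoter is shown above, stood at 1.96, 2.86 and 1.03 in fractions 7, 8 and 9 and between -0.58 and 0.81 elsewhere, with a median of 0.12. The means differed by 1.83 ± 0.38 (4-block adjusted p = 0.0762). The 4-block model called Foxp1 and Bcl11b, both factors of striatal and deep cortical projection neurons, where it called 0.763% of all genes higher. Foxp1 stood at 4.53, 4.73 and 4.22, within the reach of fraction 6 at 4.52, and differed by 1.29 ± 0.50 (4-block adjusted p = 0.0415). Bcl11b stood at 2.79, 2.93 and 2.31 against a highest other value of 2.47 in fraction 10, and differed by 1.94 ± 0.95 (4-block adjusted p = 0.0345). Isl1, a factor of direct-pathway and cholinergic neurons, stood at -1.18, -0.52 and -2.65, and fraction 6 was close to them at -1.34, while the 6 remaining fractions were at -3.47 or below. Its difference was 2.67 ± 0.84, with overlap in fraction 9 and detection in 8 of the 10 fractions. Ebf1 (-1.42 ± 0.84) and Zfp521 (-1.26 ± 0.51), which have been tied to early striatal differentiation, were lower on average, without a call. Ikzf1 did not pass the detection filter.

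The list of retinoic acid synthesis and response, which includes Rarb, had a median difference of 0.18 with 9 of 17 above 0. Rarb was the 1 member above all other fractions (1.53% of all genes). Aldh1a1, a retinaldehyde dehydrogenase also found in midbrain dopamine neurons, lay below every other fraction at 1.33, 1.36 and 1.08 against 1.44 to 3.50, a difference of -1.23 ± 0.38. Aldh1a3, the retinaldehyde dehydrogenase of the developing striatum, stood at -2.53, -0.99 and -1.61 and overlapped the other fractions, with a difference of 0.83 ± 0.61. Cyp26a1 and Cyp26c1, which break retinoic acid down, were not detected in any of the 3 fractions.

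The cortical part of the working name was examined with 30 tested factors of cortical projection neurons and layers, whose median difference was 1.00 against the other 7 fractions but 0.07 against fractions 4 to 6. Fractions 7 to 9 lay above all of the other 7 for 4 of them, against 1.53% of all genes. Tbr1, a factor of deep-layer projection neurons, stood at 4.00, 3.61 and 4.57 in fractions 7, 8 and 9, and in the other fractions from -3.03 to 3.61. Fraction 8 exceeded fraction 6 by less than 0.01, and the difference of 3.36 ± 1.60 (4-block adjusted p = 0.0272) rested largely on fractions 1 to 3, at -3.03, -2.59 and -1.92. Lmo3, a transcriptional cofactor of the cortex, stood at 2.42, 2.28 and 2.75 against -1.51 to 1.87, a difference of 1.89 ± 0.69. Tle4, a corepressor of corticothalamic neurons, stood at -1.48, -1.66 and -1.93 against -3.31 to -2.25, a difference of 1.04 ± 0.28. Cplx3, a complexin of subplate neurons, stood at -0.07, 0.21 and -0.92 against -4.60 to -1.05, a difference of 1.78 ± 0.69.

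The median of the cortical list, relative to each member's mean over the 10 fractions, was 0.69, 0.63 and 0.58 in fractions 7, 8 and 9, and its members differed in order. Tle4 and Cplx3 were lowest of the 3 in fraction 9, whereas Neurod6 and Mef2c were highest there. Neurod6, a factor of maturing pyramidal neurons, stood at 2.51, 2.45 and 3.65 in fractions 7, 8 and 9, with fraction 6 at 2.94. Mef2c, which acts in the maturation of cortical neurons, stood at 1.49, 1.26 and 1.61, with fraction 6 at 1.43. Their groups overlapped, and their differences were 1.49 ± 0.76 and 2.16 ± 0.97. The 4-block model called 6 members higher (Tbr1, Lmo3, Tle4, Mef2c, Emx1 and Crym) and 2 lower, against 0.763% and 0.232% of all genes. Those lower were Neurod1, a factor of cerebellar and hippocampal granule neurons, at -2.53 ± 0.93 (adjusted p = 0.0345), and Nrn1, which encodes neuritin, at -1.63 ± 0.41 (adjusted p = 0.0345). A call higher in this model does not place a gene above fractions 4 to 6. Crym stood at 5.09, 5.44 and 5.54 in fractions 7, 8 and 9 but at 5.34, 6.41 and 6.17 in fractions 4, 5 and 6. The 12 factors of cortical areal patterning had a median difference of 0.18 and none that did not overlap. Emx2, which acts in the patterning of the cortical sheet, stood at -2.13, -2.14 and -1.66 and was matched by fraction 5 at -1.75, with a difference of 2.05 ± 1.22 (4-block adjusted p = 0.0424). It was detected in 4 of the other 7 fractions, so the difference includes background readings.

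Several GABA neuron genes of the forebrain were higher still in fraction 10. The median difference was 0.62 over 20 members against the other 7 fractions, 0.34 against fractions 4 to 6 and -0.22 against fraction 10 (0.46, 0.14 and -0.09 over the 15 members detected in all 10 fractions), where 11 members lay below it and 4 above (29.8% and 32.8% of all genes). Dlx2, a homeobox factor of ventral forebrain progenitors and neuroblasts, stood at 1.06, 1.84 and 1.79 in fractions 7, 8 and 9, at 3.40 in fraction 10, and at 0.38 or below in fractions 1 to 6. Sp8, a factor of olfactory bulb interneurons, stood at 0.30, 1.00 and 1.31 and at 3.85 in fraction 10. Both genes thus shared an order in which fraction 10 was highest and fractions 7 to 9 came next. Their differences from the other 7 fractions were 4.31 ± 2.32 and 2.52 ± 1.43, of which the first includes background readings because Dlx2 was detected in 4 of the 7. The 4-block model called 3 members higher (0.763% of all genes), among them Dlx2 (adjusted p = 0.0272) and Dlx1 (adjusted p = 0.0289). With slab position as a linear covariate the differences of Dlx2 and Sp8 changed sign, to -0.032 and -0.26. Npas1 and Sst, which mark other GABA neurons, were among the 4 members above fraction 10.

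The list for the subventricular zone, the niche that sends neuroblasts to the olfactory bulb, overlaps the preceding list. Its median difference was 0.48 over 16 members and 0.27 over the 13 members detected in all 10 fractions. Against fraction 10 the median was -0.45, and 10 members lay below it and 1 above (29.8% and 32.8% of all genes). Vax1, a ventral forebrain homeobox gene, stood at -2.80, -2.01 and -2.86 and at -1.72 in fraction 10, with -3.30 or below elsewhere, and was detected in 5 of the 10 fractions. Cell division genes were lower for all 15 members tested, with a median difference of -0.83 against the other 7 fractions, but of -0.11 against fractions 4 to 6 and -0.06 against fraction 10. Ccna2, a cyclin of DNA replication, stood at 0.62, 0.88 and 0.45, close to 0.65 in fraction 10, whereas fractions 2 and 3 were at 3.32 and 3.49. None of the 15 was called.

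Basal forebrain cholinergic genes had a median difference of 0.13 over 8 members, and of -0.07 over the 4 members detected in all 10 fractions. Lhx8, a homeobox gene needed for forebrain cholinergic neurons, stood at 1.07 and 1.27 in fractions 7 and 8 and at -1.98 in fraction 9. It was at -1.51 in fraction 6, at -3.21 in fraction 10 and at -6.56 or below in fractions 1 to 5, and it was well above background in 2 of these 7. The groups overlapped, and the means differed by 5.65 ± 1.30, a value that depends on background readings in the fractions without detection. Nkx2-1, which lies upstream of Lhx8 in ventral forebrain development, stood at -2.18, -2.53 and -5.12, and fractions 5 and 6 were at -2.36 and -2.90, with detection in 4 of the 10 fractions. Both genes were therefore high in fractions 7 and 8 and not in 9. Chat, the enzyme of acetylcholine synthesis, was at -2.71, -2.42 and -2.53 and highest in fraction 1 at 0.02. Slc18a3, the vesicular acetylcholine transporter, stood at 0.71, 0.03 and -1.53 and differed by -0.09 ± 0.74, and Slc5a7, the choline transporter, stood at -1.03, -1.51 and -3.35. Both were lowest of the 3 in fraction 9 and, like Chat, highest in fraction 1. Against fraction 10 the list had a median difference of 1.86, and 7 of the 8 members lay above it (32.8% of all genes).

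**Figure D2:**
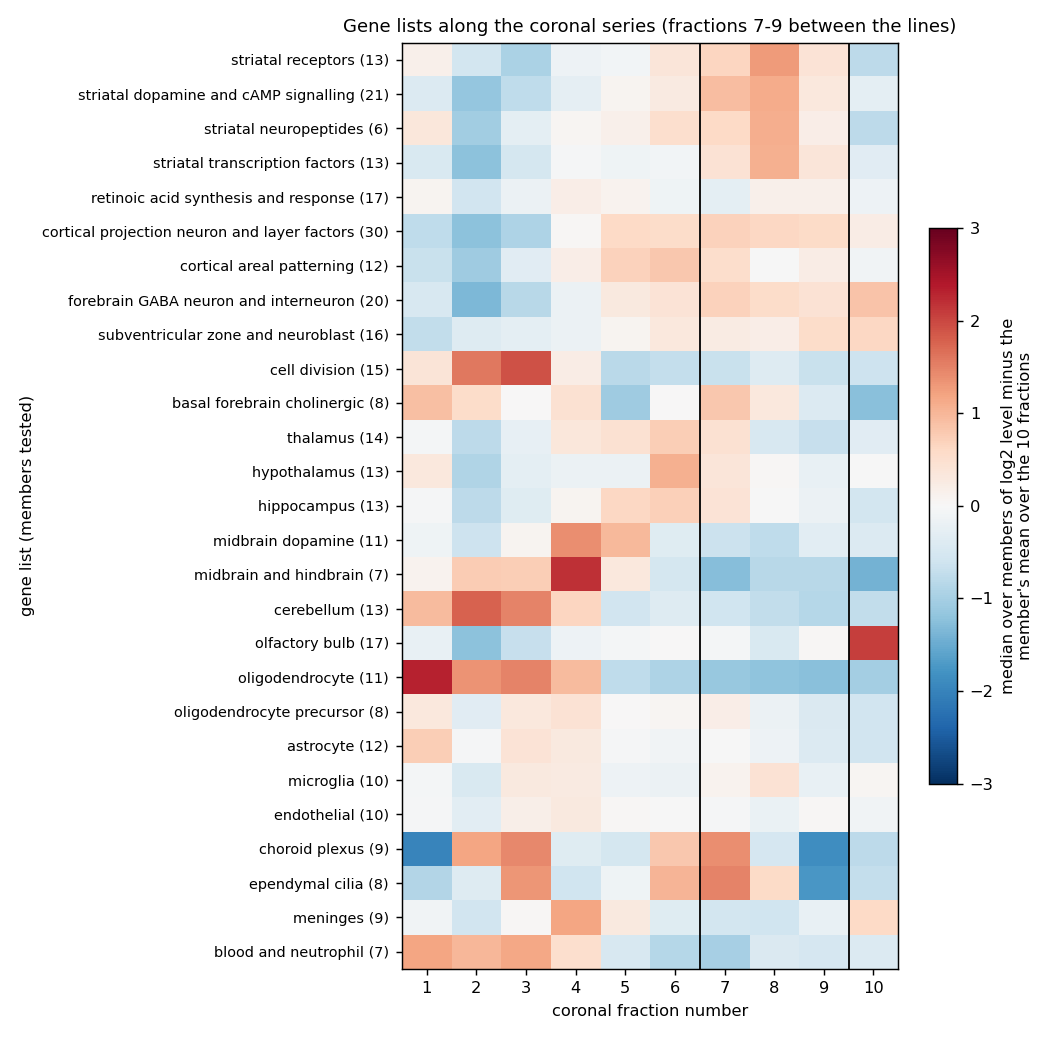
Median over the members of each gene list (rows, with the number of members tested) of the level in a coronal fraction (columns) minus the member's mean over the 10 fractions, on the log2 scale from -3 (blue) to 3 (red). The striatal receptors stood at 0.64, 1.28 and 0.42 in fractions 7, 8 and 9 between the lines, and the olfactory bulb list was highest in fraction 10.

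Beyond the lists, the genes with the largest differences above the other 7 fractions were looked up after their values were seen. Retnla, a secreted resistin-like protein known from macrophages, stood at -0.10, 2.34 and 0.01 against -5.97 to -1.76, a difference of 4.86 ± 0.87 in which 5 of the other 7 fractions were above background. Egr4, an immediate early gene, stood at 1.89, 2.39 and 2.64 against -2.86 to 1.69, a difference of 2.61 ± 1.1. Ccl8, a chemokine, was detected in 1 of the other 7 fractions and stood at -1.95, -0.88 and -3.06 against -5.65 to -3.70. Among genes lower than in all other fractions, Tfap2b, a transcription factor of cerebellum and midbrain, stood at -3.02, -3.16 and -3.09 against -2.44 to 2.12, a difference of -3.60 ± 0.88.

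**Figure D3:**
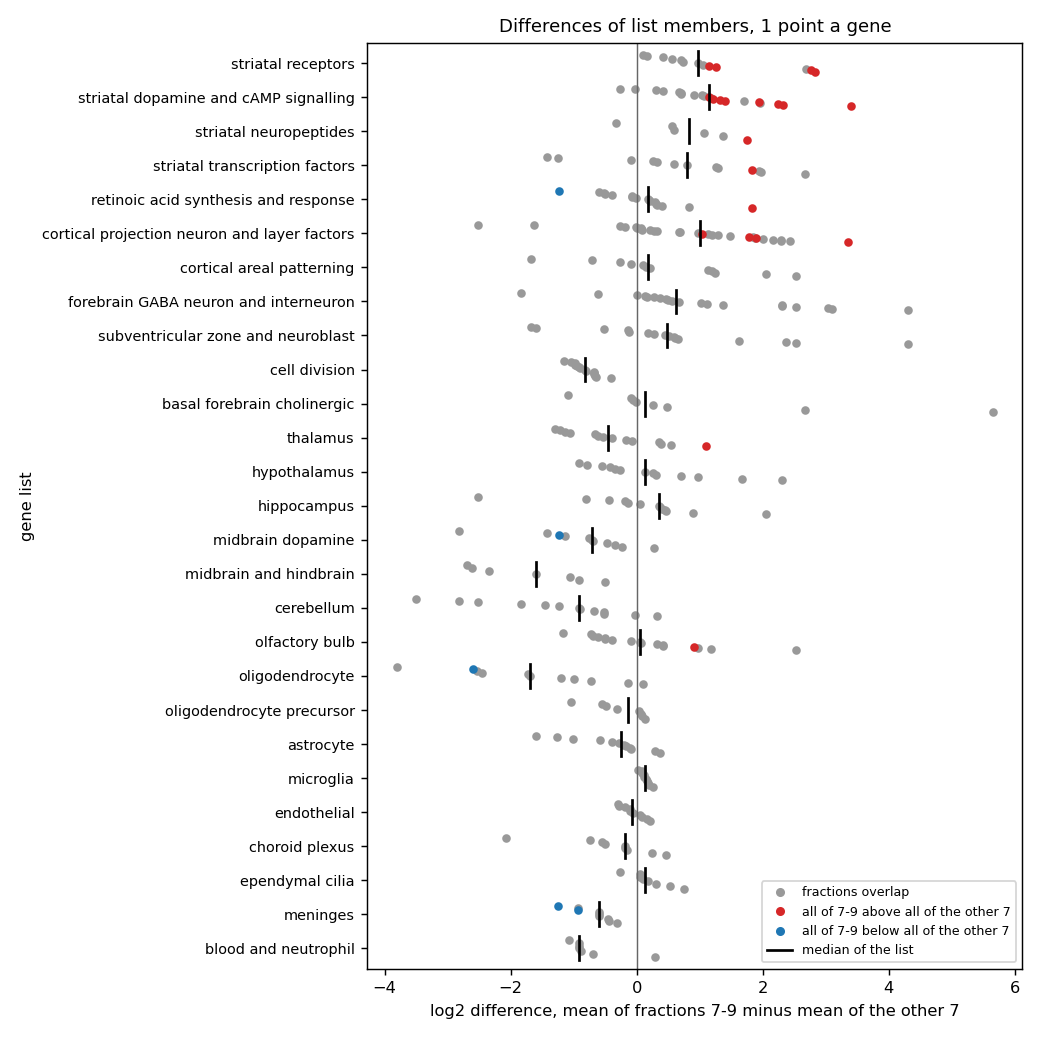
Log2 difference between the mean of fractions 7 to 9 and the mean of the other 7 coronal fractions, 1 point a gene and 1 row a list, with the median of the list as a bar. Red points are genes whose 3 values lay above all 7 others and blue points genes whose 3 values lay below them, and 8 of the 21 signalling genes are red.

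Against fractions 4 to 6, the slabs on one side of the block, limma called no probe (percent called 0 in both directions, lowest adjusted p = 0.349), while 652 probes were higher and 914 lower at an unadjusted p under 0.05. That split was 190 and 2381 with no scaling, 1103 and 958 with normexp background correction and 394 and 447 without fraction 8. When arrays were centred on the median in place of the 75th percentile, 65 probes were called higher and 55 lower, and that scaling lowered every difference alike, moving the median over all probes to -0.46 and the medians of the transcription factor, cortical and GABA neuron lists below 0. All 3 values lay above those of fractions 4 to 6 for 1053 genes (6.99%) and below them for 1839 (12.2%). Of the 53 striatal genes, 22 (41.5%) lay above and 3 below, and 36 lay above without fraction 9 (67.9%, against 10.6% of all genes). Ppp1r1b was 3.45 ± 0.66 higher, Adora2a 2.42 ± 0.61, Rarb 1.81 ± 0.48, Arpp21 1.70 ± 0.41 and Drd1 1.66 ± 0.50. The striatal receptors had a median difference of 0.79, the signalling genes of 0.78, the peptides of 0.56 and the transcription factors of 0.31, beside -0.04 over all genes tested. Over the members detected in all 10 fractions the peptide median was 0.29. For 4 of these 5 genes fraction 6 was the nearest of the 3, as for Ppp1r1b with 1.04, 0.87 and 2.90 in fractions 4, 5 and 6.

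Thalamic genes were compared with the same fractions. The median difference of the 14 members from fractions 4 to 6 was -0.61, and 5 lay below these fractions and 1 above (12.2% and 6.99% of all genes). Slc17a6, the vesicular glutamate transporter of thalamic and other subcortical neurons, stood at 2.53, 0.49 and 1.29 in fractions 7, 8 and 9 against 3.17, 3.26 and 3.32 in fractions 4, 5 and 6. Lhx9, a thalamic homeobox factor, stood at 1.07 in fraction 7 and at -2.20 and -2.76 in fractions 8 and 9, against 1.41, 1.09 and 1.46. Tcf7l2, which also marks postmitotic thalamic neurons, stood at 1.03, -1.66 and -2.46 against 0.66, 1.72 and 2.23, although another of its probes ran the other way (r = -0.572 over the 10 fractions, a description). Fraction 7 thus held levels of Lhx9 and Tcf7l2 near those of fractions 4 to 6, and fractions 8 and 9 did not. Rora, a nuclear receptor of thalamus and cerebellum, differed by -1.17 ± 0.30, and Ntng1, a netrin of thalamic axons, by -1.54 ± 0.47. Of the 14 members 3 were higher on average, among them Ramp3, a subunit of calcitonin-family receptors, at 4.40, 4.45 and 4.38 above every other coronal fraction, the highest of which was fraction 6 at 4.29.

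The peptides of the hypothalamic list did not share 1 pattern. Oxt, the oxytocin precursor, stood at 2.21 in fraction 6 and 3.11 in fraction 7, and at -1.14 and -1.73 in fractions 8 and 9. Avp, the vasopressin precursor, stood at 2.83 and 2.52 in fractions 6 and 7, and at -1.65 and -1.93 in fractions 8 and 9. Both hormones of the magnocellular nuclei were thus shared by fractions 6 and 7. Pmch, the precursor of melanin-concentrating hormone of the lateral hypothalamus, stood at 3.56 in fraction 6 and at -1.17, -1.21 and -2.22 in fractions 7, 8 and 9. Hcrt, the orexin precursor of the same area, stood at 3.47 in fraction 6 and at -0.55, -0.62 and -0.93. Other peptides of the list differed from these. Trh, the precursor of thyrotropin-releasing hormone, was at 2.58, 1.79 and 1.59 in fractions 7, 8 and 9 and highest in fraction 10 at 2.97. Gal, the galanin precursor, was highest in fraction 1 at 3.42, and Cartpt, the precursor of the CART peptide, was highest in fraction 4 at 2.28 and stood at 1.31, 1.83 and 1.80 in fractions 7, 8 and 9. The list had a median difference of -0.29 from fractions 4 to 6 over 13 members.

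Hippocampal and midbrain lists had medians below 0 against fractions 4 to 6. Of the 13 hippocampal members, 3 lay below and none above, with a median of -0.36, where 12.2% of all genes lay below. Fibcd1, a marker of pyramidal neurons of hippocampal field CA1, stood at -2.27, -3.02 and -3.07 against -1.13, -0.36 and -1.25, a difference of -1.87 ± 0.34. C1ql2, a synaptic organiser of dentate granule cells, differed by -1.34 ± 0.33. The midbrain dopamine list had a median of -1.45 over 11 members, with 5 below and none above (12.2% and 6.99% of all genes). Slc18a2, the vesicular monoamine transporter, stood at -0.60, -1.26 and -0.66 against 0.87, 0.72 and 0.55, a difference of -1.56 ± 0.25. Slc6a3, the dopamine transporter of the neurons that innervate the striatum, stood at -1.37, -1.18 and -0.65 against 2.85, 3.30 and -0.80, so that fraction 6 was as low as the striatal fractions. Slc6a3 was not called with all fractions, and no probe was called without fraction 4 or without fraction 5. Without fraction 6, the slab where it was low, Slc6a3 was called lower, with a difference of -4.14 (limma adjusted p = 0.0359). Chrna6, a nicotinic receptor subunit of dopamine neurons, stood at -2.88, -2.97 and -3.51 against 0.40, 0.49 and -2.30. Of the midbrain and hindbrain list, 10 genes, most of them Hox and Phox2 genes, did not pass the detection filter, and the 7 tested had a median of -1.83. Gata3, a factor of midbrain GABA and hindbrain neurons, stood at -4.15, -2.71 and -3.71 against 1.17, 0.71 and -2.42, a difference of -3.34 ± 0.85.

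**Figure D4:**
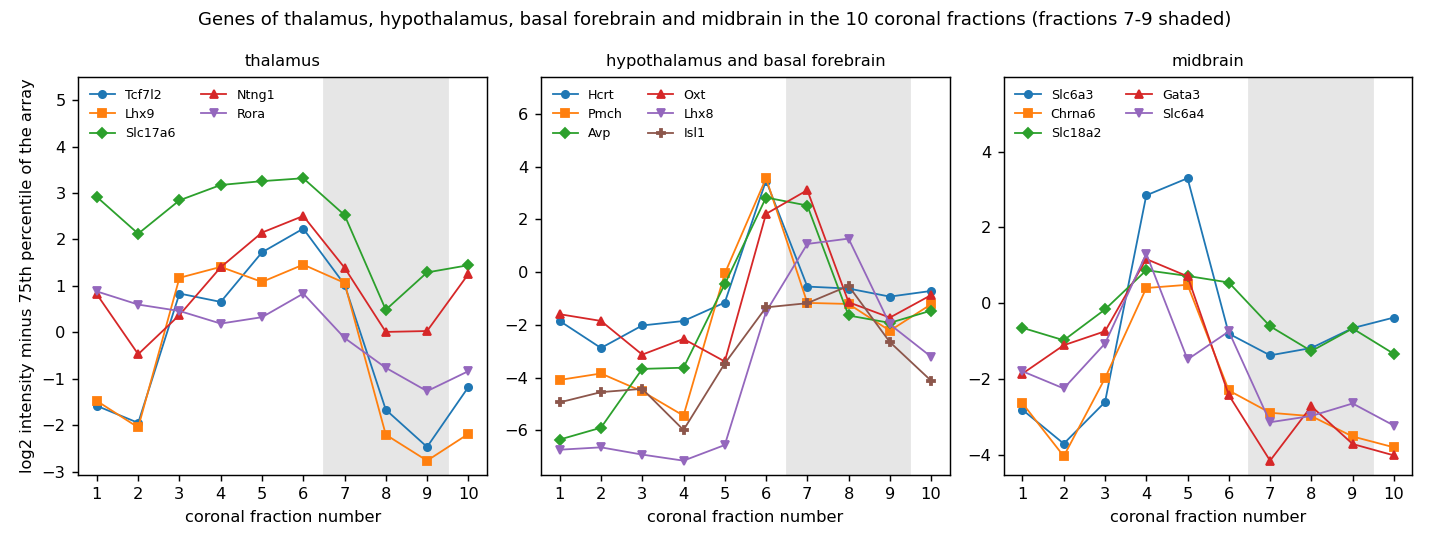
Levels (log2 intensity less the 75th percentile) of genes of thalamus, of hypothalamus and basal forebrain, and of midbrain in the 10 coronal fractions, 1 array a point, with fractions 7 to 9 shaded. Lhx9 stood at 1.07 in fraction 7 and at -2.20 in fraction 8, Oxt was highest in fraction 7 at 3.11, and Slc6a3 was high only in fractions 4 and 5 at 2.85 and 3.30.

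Fraction 10, on the other side of the block, was set against fractions 7 to 9 as 1 array that was taken to vary like the slabs within the other blocks. Limma called 5 probes higher (0.0242%) and 28 lower (0.136%), which are 3 genes higher (0.0199%) and 17 lower (0.113%) when each gene is read from 1 probe. Centring on the array median gave a split of 14 higher and 38 lower, and with quantile normalization it was 0 and 8. No probe was called in either direction with slide as a block, or when fraction 5, 7 or 8 was left out. Within slide 3, which held fractions 9 and 10, all 17 genes were lower in fraction 9 (-4.84 to -1.58) and all 3 higher (2.15 to 2.77), a sign that the absence of overlap in the choice of these genes fixes. All 3 values lay above fraction 10 for 4944 genes (32.8%) and below it for 4495 (29.8%).

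Of the 53 striatal genes, 36 (67.9%) lay above fraction 10 and 4 below it (32.8% and 29.8% of all genes), and none was called. Drd1 was higher by 2.72 ± 0.71 (limma adjusted p = 0.247), Ppp1r1b by 2.30 ± 0.93, Rgs9 by 2.08 ± 0.54 and Gng7 by 1.77 ± 0.56. Six3, a homeobox factor of the anterior forebrain, stood at 1.09, 0.50 and -1.35 against -3.04 in fraction 10, a difference of 3.12 ± 0.86. Pdyn was not well above background in fraction 10 and was at least 1.96-fold higher in fractions 7 to 9 (limma adjusted p = 0.132), and Gpr149 likewise at least 2.99-fold (adjusted p = 0.313). The 4 genes below fraction 10 were Sp9, Meis2, Eya1 and Npy. Sp9, a factor of indirect-pathway neurons and of olfactory bulb interneurons, stood at -2.16, -1.78 and -1.95 against 0.19, and Meis2, a factor shared by striatal and bulb neurons, at 3.54, 3.84 and 3.99 against 5.29. The receptors had a median difference of 1.60, the signalling genes of 0.98, the peptides of 1.11 and the transcription factors of 0.21, beside 0.02 over all genes tested. The peptide median was 0.67 over members detected in all 10 fractions, and that of the transcription factors 0.54 with all probes of a gene averaged.

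Genes of the olfactory bulb lay mostly in the opposite direction, with a median of -2.50 over 17 members. Of these, 12 lay below fraction 10 and 2 above (29.8% and 32.8% of all genes). Omp, the marker protein of mature olfactory sensory neurons, stood at -2.03, -2.79 and -1.93 in fractions 7, 8 and 9 against 2.40 and fell by 4.65 on the log2 scale (SE 0.53, limma adjusted p = 0.0199). Eomes, a factor of the projection neurons of the bulb, stood at -0.97, -1.95 and -0.62 against 3.38 and fell by 4.56 (SE 0.51, adjusted p = 0.0199). Nmb, the neuromedin B precursor, stood at 1.45, 1.20 and 1.40 against 4.85 and fell by 3.50 (SE 0.34, adjusted p = 0.0183). These 3 were the members called, where 0.113% of all genes were called lower. Tbx21, a factor of the same projection neurons, stood at -3.96, -3.73 and -1.18 against 2.87 and missed the threshold (adjusted p = 0.0927), with fraction 9 between fraction 10 and the rest. Cdhr1, a cadherin of bulb projection neurons, showed the same step, at 0.48, -0.07 and 1.89 against 5.16, and Th, the enzyme of dopamine synthesis, stood at 1.18, 1.04 and 1.91 against 4.54.

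The other genes called lower than fraction 10 included S100a5, a calcium-binding protein of olfactory sensory neurons, which had the largest change of all. It stood at -3.0, -3.65 and -1.40 against 3.44 and fell by 6.13 on the log2 scale (SE 0.68, adjusted p = 0.0199). Lgr5, a receptor of the Wnt pathway, fell by 3.55 (SE 0.37), Nppa, the atrial natriuretic peptide precursor, by 3.38 (SE 0.42) and Dusp4, a phosphatase of MAP kinases, by 2.93 (SE 0.34). The remaining members of the 10 largest were Akr1c18, a steroid dehydrogenase (-3.62), Crybg1 (-3.59) and Apold1, an endothelial early response gene (-3.33). The 3 genes called higher, Allc (allantoicase), Sftpc (surfactant protein C) and Tdrd6 (a tudor domain protein of germ cells), were all not well above background in fraction 10. They were at least 1.97-fold, 1.62-fold and 1.70-fold higher in fractions 7 to 9 (adjusted p = 0.0199 for each), at levels between -4.15 and -3.46 that are near the lower end of detection.

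**Figure D5:**
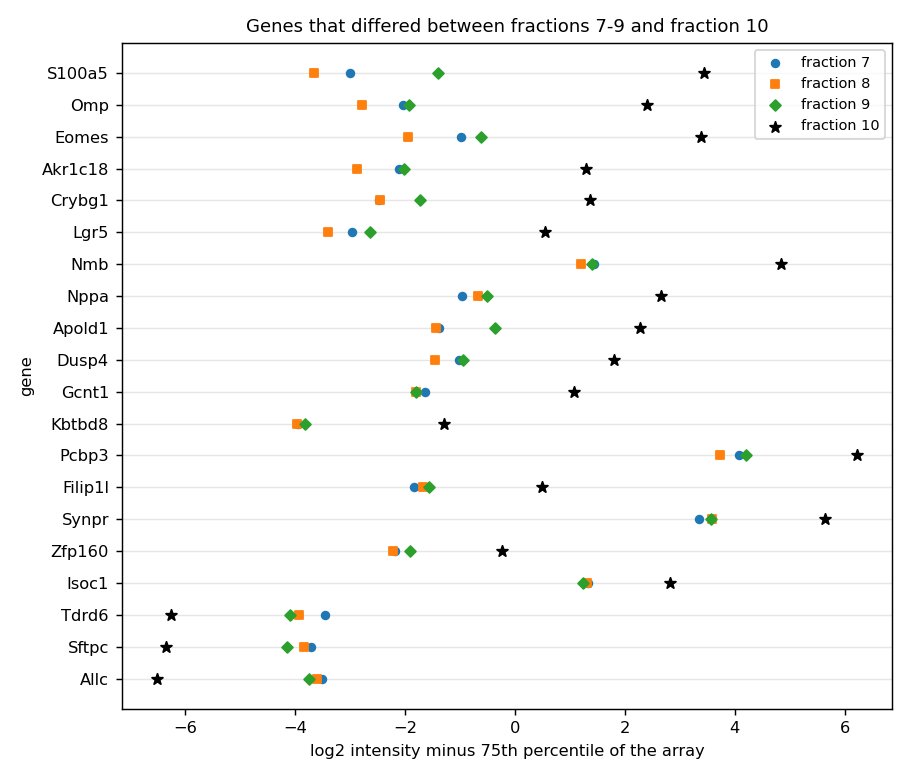
Levels (log2 intensity less the 75th percentile) in fractions 7, 8, 9 and 10 of the 20 genes that limma called between fractions 7 to 9 and fraction 10. S100a5 stood at 3.44 in fraction 10 and at -3.65 to -1.40 in the other 3, and the 3 lowest rows are the genes that were higher in fractions 7 to 9.

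Non-neuronal lists were compared to show what else moved with these fractions. Oligodendrocyte genes had a median difference of -1.70 over 11 members against the other 7 fractions, and their summed level, in units of the 75th percentile, was 35.3 to 45.0 in fractions 7 to 9, 46.4 to 170 in fractions 4 to 6, 273 to 476 in fractions 1 to 3 and 53.7 in fraction 10. Mobp, a myelin protein, stood at -0.41, -1.02 and -1.47 and differed by -3.80 ± 1.38, with overlap in fraction 10 at -0.53. Meningeal genes were lower for all 9 members, with a median of -0.60, and all 9 lay below fraction 10 (29.8% of all genes). Their summed level was 40.1 to 50.7 in fractions 7 to 9, 57.2 to 133 in fractions 4 to 6, 45.9 to 61.9 in fractions 1 to 3 and 93.0 in fraction 10. Igf2, a growth factor of the meninges and choroid plexus, stood at -0.09, -0.30 and 0.08 against 0.19 to 2.19. None of these genes was called in the 2-group or the 4-block model.

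Endothelial genes differed little, with a median of -0.08 over 10 members and a summed level of 57.6 to 62.8 against 44.6 to 78.0 over the other fractions. Astrocyte genes had a median of -0.25 over 12 members. The remaining lists had medians of -0.14 over 8 members for oligodendrocyte precursors, -0.91 over 7 for blood and neutrophils, -0.91 over 13 for the cerebellum, -0.19 over 9 for the choroid plexus and 0.14 over 8 for ependymal cilia, and 1 bone gene was tested. Agt, angiotensinogen, stood at 0.90, -0.57 and -1.62 against 1.1 to 2.35 in fractions 1 to 6 and -0.86 in fraction 10. Microglial genes were above 0 for all 10 members, with a median of 0.13, and Siglech carried the largest value, at 6.01, 7.75 and 7.25, a difference of 0.26 that was -0.11 without fraction 8. It was high in fractions 1, 2, 8 and 9, the arrays with the highest median level over all probes, and the part of those arrays in the result was not tested. Choroid plexus and ependymal genes varied more within the block than between the groups, with summed levels of 21.4 to 237 and 3.37 to 27.1 in fractions 7 to 9. Their part, and that of the oligodendrocyte and meningeal genes, in the striatal differences was not tested.

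Within the block, fraction 7 resembled fraction 6 more than it did its partners. The median absolute difference over the 15075 genes was 0.152 between fractions 6 and 7, 0.256 between 7 and 8, 0.229 between 8 and 9 and 0.308 between 9 and 10. The arrays differed as well, with a median level over all probes of -3.90 and -3.86 in fractions 6 and 7 but -3.12 and -3.45 in 8 and 9. Fraction 9 was also on another slide. The part of these array differences in the resemblance was not tested. Genes of motile cilia, looked up after their values were seen, were among those with the largest step to fraction 9. Tmem212 stood at 0.89, -0.54 and -3.98 in fractions 7, 8 and 9, Ccdc153 at 2.10, 1.15 and -2.07 and Odf3b at 1.49, 0.34 and -2.77. Ttr, the transthyretin of the choroid plexus, stood at 7.62, 5.46 and 3.37. Both groups line or fill the ventricles, and of these 3 fractions all 4 genes were highest in fraction 7 and lowest in fraction 9. Of the 53 striatal genes, 29 were highest of all 10 fractions in fraction 8, and in 12 of the 14 that did not overlap fraction 9 was lowest of the 3.

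The same striatal genes were read in the horizontal and sagittal series, 6 fractions of 1 mouse each, as a description, since slabs cut in those planes hold striatum together with other regions. Ppp1r1b ranged from 0.55 to 4.62 in the horizontal fractions, with the 3 highest values in fractions 4, 5 and 6, and from 1.84 to 4.54 in the sagittal fractions, with the lowest in fraction 4. Drd1 ranged from -2.42 to -0.65 in the horizontal and from -2.98 to -0.56 in the sagittal fractions, again lowest in sagittal fraction 4. The coronal range, from -4.69 to 0.48, was the widest of the 3 series. Adora2a was highest in horizontal fraction 5 at 1.03 and in sagittal fraction 2 at 1.31. Of the 53 genes, 17 (32.1%) were highest in horizontal fraction 4 and 16 (30.2%) in horizontal fraction 5, against 12.9% and 24.3% of all genes. In the sagittal series 15 (28.3%) were highest in fraction 1 and 17 (32.1%) in fraction 2, against 16.5% and 17.2% of all genes.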

How the data were processed

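The analysis used 10 one-colour Agilent mouse expression arrays of 1 brain, with 12 arrays of the other brains only described. Per the file headers, the deposited intensity of each spot had been background-subtracted and detrended by Agilent Feature Extraction 10.10.1.1, and each spot carried a flag for being well above background. Log2 intensities shifted to the 75th percentile were deposited as well in 1 table by the authors, and 99.9% of them lay within 0.02 of those computed here. Here log2 intensities were set relative to the 75th percentile of 55600 probes after control spots, outlier spots and 81 probes without a value on some array were left out. Gene names came from RefSeq accessions through a RefSeq table (GRCm38.p6), which named 26553 of 28087 RefSeq probes. A gene was read from its probe of highest median over the 10 arrays. The differences were fitted with limma 3.58.1 in R 4.3.3 and adjusted by Benjamini-Hochberg over 20625 probes at 0.05. Fractions 7 to 9 against the other 7 were fitted as 2 groups with 8 residual degrees of freedom, and against fractions 4 to 6 and fraction 10 in a 4-block model with 6. In simulated data for the first comparison, over 20625 probes, 26% of changes of 1 log2 unit and 82% of changes of 2 were recovered, with 7 false calls. The data themselves gave no call although 450 genes were more than 2-fold higher. The simulated shares therefore do not carry over to these slabs. A bound ("at least N-fold") sets the mean of fractions 7 to 9 against the lowest signal well above background. The number of arrays limits the precision. The fractions, the 28 gene lists and the tests were chosen with earlier results of these data known. Named genes were the 3 markers, the 10 largest calls per direction and comparison, members of each list with the largest differences, and any striatal member. Other genes, also within the lists, were named after their values were seen. The scaling, the background correction, the detection filter, the probe set, the model, the slide and the fractions included were varied, and the authors' table was used as an alternative. The planned background correction was run on median spot signals because the files hold no mean signals. Probes without a RefSeq identifier were left out. A few genes that the rule names are not reported here by name.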

Additional observations from a re-analysis of the deposited data

Results flagged for a closer look

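Of 56 named genes examined over the other 7 coronal fractions, 3 had 1 fraction far from the other 6, each time fraction 10, and chance alone marks about 1 gene in 20. Sp8 stood at 3.85 in fraction 10 against -3.68 to -0.64 in fractions 1 to 6. Doc2g, a calcium-binding protein found in the olfactory bulb, stood at 2.83 against -3.59 to -2.88. Agt stood at -0.86 against 1.1 to 2.35. For Sp8 the difference of fractions 7 to 9 was 2.61 from fractions 4 to 6 and -2.98 from fraction 10.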

How the results depend on the processing

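Against the other 7 fractions, every alternative run gave 0 calls except 3. Leaving out fractions 1 and 2 gave 1 higher (Olfr150, 4.70, adjusted p = 0.0384), slab position as a covariate gave 1 higher (Arhgap33os, 3.47, adjusted p = 0.0264), and the 4-block model gave 140 higher and 49 lower. Against fractions 4 to 6, centring on the median gave 65 higher and 55 lower, and leaving out 1 fraction at a time gave 0 to 1 higher and 0 to 3 lower, the calls coming without fraction 6 (Slc6a3, Tfap2b and Dmbx1 lower, 1 unnamed probe higher). Against fraction 10 (5 higher and 28 lower), the count of higher calls was 14 centred on the median, 0 with quantile normalization, 3 with no scaling, 2 with probes detected in all 10 fractions, 3 with all probes that are not controls, 18 without fractions 1 and 2 and 0 with slide as a block. The count of lower calls was 38, 8, 16, 30, 7, 34 and 0 in that order, 48 with normexp and 71 with no filter on dim probes. Leaving out 1 fraction at a time gave 0 to 11 higher and 0 to 33 lower, with 0 of either without fraction 5, 7 or 8. Centring on the median shifted the median difference of all probes to -0.46 against fractions 4 to 6 and -0.13 against fraction 10, and no scaling to -0.47 and 0.25. With slab position as a covariate the difference was -0.54 for Sp9, -0.26 for Sp8, -0.032 for Dlx2, -0.97 for Doc2g and 0.39 for Enpp6, each of opposite sign. Leaving out 1 fraction at a time moved Siglech between -0.11 (without fraction 8) and 0.76. With all probes of a gene averaged, the list medians against the other 7 fractions became 0.87 for GABA neurons, 0.12 for hippocampus, -2.35 for midbrain and hindbrain and -1.23 for cerebellum, and that of GABA neurons against fractions 4 to 6 became 0.53. The cause of these changes was not tested, apart from the smaller number of probes or arrays. Median spot signals in place of mean signals, and the settings without single fractions in the counts of genes that did not overlap, were chosen after seeing the data. Of 1390 values for the 56 named genes against the other 7 fractions, 6 changed direction and 15 passed the threshold, all 15 in the 4-block model. Since none of these genes was called, their lack of calls elsewhere does not show stability. Precision was limited by 1 array a fraction. No paired analysis was possible because the compared fractions share no replicate numbers.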
